A study of Mus musculus with 8 samples.

Results

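The cytosolic ribosomal protein genes were taken from the count table as every row whose symbol is Rpl or Rps followed by a digit, or is Rplp0, Rplp1, Rplp2 or Rpsa, after leaving out 10 symbols that start with Rps6k and 8 that contain -ps. The rule found 85 of 19669 genes. Of these, 77 encode the standard proteins of the ribosome, 46 of the large and 31 of the small subunit. The other 8 are the paralogues Rpl22l1, Rps27l, Rpl36al, Rpl39l, Rpl3l and Rpl7l1, the retrogene Rps27rt, and Rps19bp1, which encodes a binding partner of Rps19 and not a ribosomal protein. The members held 14.5% of all unique molecular identifiers (UMIs, one per captured RNA molecule) and 17.9% of those that were not globin.

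The cells came from erythroblastic islands, the clusters of erythroblasts around a central macrophage, enriched on BSA gradients and separated with EDTA and gentle mechanical force before droplet single-cell sequencing. All mice were males of the lupus-prone Sle1.Yaa strain. Those labelled Anemic carried a human TLR8 transgene and gave 2 bone marrow and 2 spleen libraries; the control mice, labelled Non-Anemic, gave 3 bone marrow libraries and 1 spleen library. The table pools 24942 cells of the 8 libraries, and its columns are bare cell barcodes that do not name a library, so Anemic and Non-Anemic cells could not be compared. The barcodes fall into 8 alphabetical runs of 447 to 6787 cells; the runs were used, unnamed, to show spread, and 1031 cells carry a barcode that occurs in more than 1 run.

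A ribosome joins a large subunit, which forms peptide bonds, and a small subunit, which reads the messenger RNA; each ribosomal protein is usually needed in a single copy, and the genes are transcribed and translated together. Their messenger RNAs typically begin with a C followed by an unbroken run of C and T (C and U in the RNA), the terminal oligopyrimidine tract, through which mTOR signalling and LARP1 adjust their translation and stability. Erythroblasts make ribosomes early, fill with globin, condense their chromatin, expel the nucleus and lose their ribosomes as reticulocytes mature. Loss of 1 copy of several of these genes causes Diamond-Blackfan anaemia, in which red cell precursors fail.

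The start sites of 6 members are printed as examples, and no result below rests on them. Rps18 fell most along the erythroid series, and Rpl38 and Rplp2 were among those that fell least. Rps27l and Rpl22l1 are paralogues whose balance with a partner varied, and Rps27 is the partner of Rps27l. Each sequence is the transcribed strand from 30 bases before to 20 bases after the RefSeq start on GRCm38.p6, with the longest stretch of only C and T that reaches within 10 bases of the start in capitals.
Rps18: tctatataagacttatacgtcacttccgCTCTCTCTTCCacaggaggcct
Rpl38: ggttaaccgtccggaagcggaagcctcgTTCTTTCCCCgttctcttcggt
Rplp2: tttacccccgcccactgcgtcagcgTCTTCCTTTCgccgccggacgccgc
Rps27: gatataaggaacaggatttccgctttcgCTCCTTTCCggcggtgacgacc
Rps27l: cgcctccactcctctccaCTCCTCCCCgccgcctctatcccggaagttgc
Rpl22l1: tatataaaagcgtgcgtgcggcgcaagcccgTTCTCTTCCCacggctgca

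The windows lie at chr17:33955646-33955695 (Rps18, minus strand), chr11:114668550-114668599 (Rpl38, plus), chr7:141447621-141447670 (Rplp2, plus), chr3:90213629-90213678 (Rps27, minus), chr9:66946056-66946105 (Rps27l, plus) and chr3:28805478-28805527 (Rpl22l1, plus), and each spans promoter and first exon. The stretch is 11 bases long in Rps18, 10 in Rpl38, Rplp2 and Rpl22l1, and 9 in Rps27 and Rps27l. Of 65 members with a RefSeq start window, 29 (44.6%) had a stretch of at least 8 bases in this position, against 15.8% of 27025 genes. Whether the stretch goes with the change of members was not tested. Among genes near the ends of the change, Rps18 and Rplp2, at opposite ends, had such a stretch. Rpl41, Rpl12 and Rps2, also near the ends, had 3, 7 and 6 bases. Rpl22, Rpl36a and Rpl36al, of the paralogue pairs described below and not printed, had 5 bases each.

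Clustering of 24925 cells, with the members left out of the genes that define clusters, gave 9992 cells in clusters called erythroid-like from fixed markers such as the globins and Alas2. A cluster of 1311 of these cells came almost wholly, 95.3%, from 1 run. In 4 erythroid-like clusters just 1 or 2 markers were among the 50 leading genes, Car1 in the 3 with least globin, so the youngest stage is the least firmly named. The cells were ordered by the share of globin in each cell's UMIs, with limits at 2, 20, 60 and 80%, into stages of 1129, 1724, 3132, 2112 and 1895 cells. Between 141 and 473 cells lay within 1 percentage point of a limit. Since globin fills the late cells, levels are given as CPM, scaled to the non-globin UMIs of the group.

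Ribosomal protein RNA held a high and similar share in the first 2 stages and a smaller one in each of the 3 later stages. The members took 29.96% of non-globin UMIs in cells with under 2% globin (26.1 to 31.3% over 8 runs, median 30.1%) and 28.1% in cells with 2 to 20% globin (25.7 to 29.5% over 7 runs, median 28.2%). The share was 16.5% at 20 to 60% globin (12.5 to 22.7% over 8 runs, median 16.5%). It reached 5.79% at 60 to 80% globin (4.04 to 12.3% over 7 runs, median 5.93%). The ranges of the first 2 stages overlapped each other but lay wholly above those of the 3 later stages.

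In the last stage, with 80% globin or more, the share was higher again, at 9.71% of the remaining non-globin UMIs (5.07 to 16.4% over 7 runs, median 9.36%). It was higher than at 60 to 80% globin in 7 of 7 runs, although the ranges of the stages overlap. Run 2 was the highest in both, at 12.3 and 16.4%. Per cell the members were highest at 2 to 20% globin and lowest in the last stage: 2544 UMIs under 2% globin, 3245 at 2 to 20%, 1068 at 20 to 60%, 162 at 60 to 80% and 95.3 in the last stage. Over the same 5 stages the non-globin UMIs per cell went from 8492 to 11535.5, 6482, 2793 and 982. From 60 to 80% globin to the last stage member UMIs per cell thus fell less than other non-globin UMIs, and fewer RNA molecules per cell cannot be told apart from weaker capture.

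**Figure D1:**
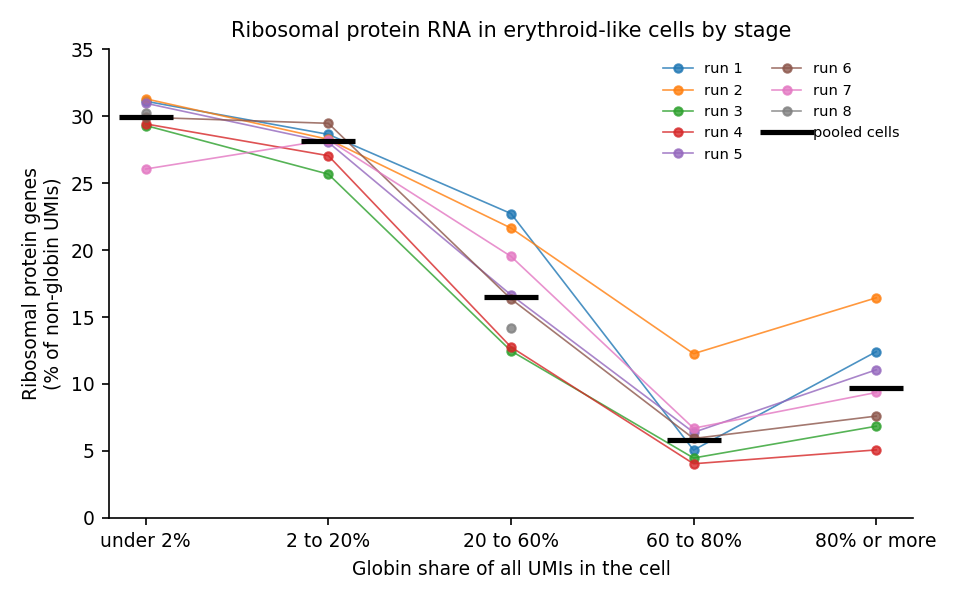
Share of non-globin UMIs held by the ribosomal protein genes (y axis, percent) in erythroid-like cells by globin stage (x axis); coloured points joined by lines are barcode runs with at least 20 cells of the stage, and black bars are all cells pooled. Every run drops from 2 to 20% globin to 60 to 80% where both are measured, and 7 of 7 runs are higher in the last stage than in the one before it.

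Narrower steps of globin, chosen after the stages had been seen, placed the lowest share late. The share was 26.9% at 10 to 20% globin (24.1 to 28.3% over 7 runs) and 23.7% at 20 to 30% (19.9 to 27.1% over 7 runs). The runs of these neighbouring steps overlap, and whether the fall had a break at 20% globin was not tested. Per cell, members had 3613 UMIs at 10 to 20% globin and 2484 at 20 to 30%. The share was 18.6% at 30 to 40%, 12.0% at 40 to 50%, 8.04% at 50 to 60% and 5.48% at 75 to 80%. Pooled cells then gave 7.22% at 80 to 85% and 10.7% at 90 to 95% globin. The median run did not differ at the first of these steps, at 5.85% both at 75 to 80% (3.33 to 6.37% over 5 runs) and at 80 to 85% (3.98 to 20.7% over 5 runs, a single run standing far above), and was 9.65% at 85 to 90% (5.76 to 15.8% over 6 runs) and 9.91% at 90 to 95% (5.70 to 16.2% over 7 runs). Member UMIs per cell were 229 at 60 to 65% globin and 141 at 70 to 75%. They were then nearly level, at 101 at 75 to 80% globin, 101 at 80 to 85% and 112 at 85 to 90%. Over those level steps all non-globin UMIs fell from 1839 to 1096 per cell. Member UMIs per cell were lower again at 90 to 95% globin, at 85.3, and at 95 to 100%, at 70.7 in 38 cells.

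Malat1, a nuclear RNA looked up after the rise had been seen, dropped over nearby steps: 45992 CPM at 75 to 80% globin, 31799 CPM at 80 to 85% and 4010 CPM at 85 to 90%. Neutrophil RNA also moved with stage. All 12 neutrophil markers were detected in every stage, none at 0, and their summed level was 879 CPM under 2% globin (88.2 to 3272 over runs), 928 (110.0 to 2876), 1671 (66.9 to 5115) and 3476 CPM (308 to 10332) in the next 3 stages, and 8397 CPM in the last (913 to 21524). Per cell they stayed between 7.47 and 10.8 UMIs. The part of nuclear loss or of RNA from other cells in the late share was not tested.

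**Figure D2:**
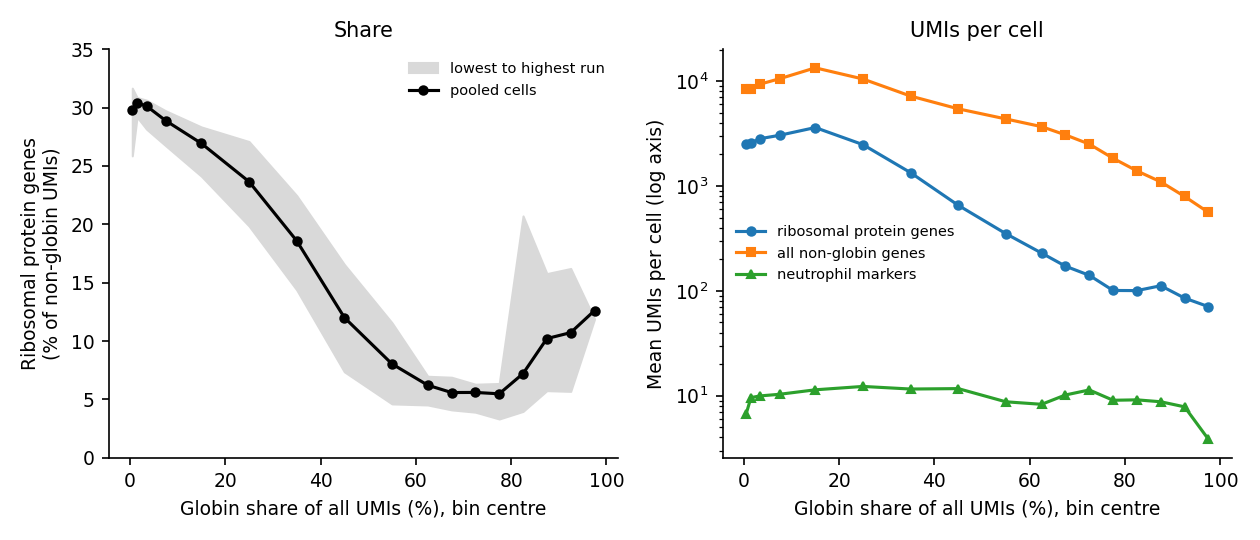
Left, ribosomal protein share of non-globin UMIs (percent) over narrow steps of globin share (x axis, bin centre), with black points for pooled cells and a grey band from the lowest to the highest run with at least 20 cells. Right, mean UMIs per cell on a log axis for ribosomal protein genes, all non-globin genes and the 12 neutrophil markers. Member UMIs per cell level off near 101 from 75 to 85% globin while the share turns upward, and are lower again from 90% globin.

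Gene by gene, each stage was compared with the stage at 2 to 20% globin by the log2 ratio of CPM (with 10 CPM added) relative to the median gene. A gene counts as lower or higher where the ratio is at least 2-fold and no run holding 20 or more cells of each stage goes the other way; 83 of the 85 members reached the 20 CPM needed in either stage, Rpl39l and Rpl3l being too low. There is no p-value, since pooled cells are 1 sample.

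In the youngest cells the genes stood much as at 2 to 20% globin. None of 83 members was called lower (7.18% of all genes were) or higher (6.31%), and their median difference was 0.00. Among the standard proteins the values ran from -0.62 for Rpl39, a small protein of the peptide exit tunnel (2072 against 2975 CPM), to 0.47 for Rpl12, part of the stalk base (5400 against 3621 CPM). Both changed sign between runs.

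At 20 to 60% globin, 14 of 83 members were lower (5.54% of all genes) and none higher (7.11%), with a median of -0.77 and all 83 below 0. The lowest were Rpl12 at -1.27, Rps2 at -1.23, Rpl32 and Rps18 at -1.20 and Rpl18 at -1.17. Rpl5 and Rpl11, which enter the ribosome together with 5S RNA and otherwise restrain Mdm2, were both called lower, Rpl11 at -1.05. Highest was Rps29 at -0.08 (3473 against 3771 CPM). The count was 7 without run 3 or run 4, 8 without run 6, 22 without run 7, and 0 with stage limits of 1, 15, 50 and 75%.

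At 60 to 80% globin almost the whole family was low. Here 73 of 83 members were called lower (14.0% of all genes) and none higher (22.5%); the median was -1.72 relative to a median gene that itself stood at -0.57. By subunit, 41 of 46 large and 29 of 31 small members were lower, with medians of -1.76 and -1.90.

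Rps18, a protein of the small-subunit head, fell furthest. Its level over 7 runs was 4156 to 5581 CPM (median 5157) at 2 to 20% globin and 184 to 1099 CPM (median 366) at 60 to 80%, with pooled levels of 4979 and 367 CPM and a relative log2 difference of -3.15. The 2 sets of runs did not overlap, and the pooled fall was 13.6-fold on the plain scale. Rpl12 followed at -2.75 (2803 to 5333 CPM, median 2899, against 192 to 883 CPM, median 339). Rps2, at the mRNA entry site, was also at -2.75 (5860 to 9531 CPM, median 7560, against 356 to 1684 CPM, median 829). Both separated fully between the stages. Next in order came Rpsa (-2.51), Rps20 (-2.49), Rpl13a (-2.49), Rpl32 (-2.44), Rpl5 (-2.36), Rpl36a (-2.33) and Rpl18 (-2.31), all called lower.

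The smallest differences included several genes with short coding sequences, beside Rpl21 and Rpl24 of middle length (480 and 471 bases). Rps29, a zinc-binding protein of the small subunit, differed by -0.39 (2427 to 5346 CPM, median 4028, against 1183 to 2228 CPM, median 1993) and was not called. Rpl41, which has the shortest coding sequence of the family at 75 bases, differed by -0.63 (4443 to 7817 CPM, median 5268, against 1212 to 4021 CPM, median 2366) and changed sign between runs relative to the median gene. Their plain levels nevertheless did not overlap between the stages. Rpl21 (-0.91), Rpl38 (-0.97) and Rpl39 (-1.01) were not called either; Rplp2 (-1.03), Rpl34 (-1.05), Rpl24 (-1.07), Rpl37a (-1.09) and Rps26 (-1.22) were called lower.

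Of the 23 genes listed for Diamond-Blackfan anaemia, 21 were lower at this stage, with a median of -1.72, the same as for all members. Rps19, the gene most often affected in that disease, went from 3841 to 4400 CPM over runs (median 3987) to 453 to 2044 CPM (median 842), a difference of -1.72. Rpl5 went from 2068 to 2371 CPM (median 2179) to 212 to 678 CPM (median 288). Rpl11 went from 2701 to 3720 CPM (median 3421) to 387 to 935 CPM (median 564), a difference of -1.84. None of these 3 genes overlapped between the stages.

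In the last stage the count depended on the reference. Measured plainly, the median member stood at -1.75 against 2 to 20% globin, but the median gene stood at -1.23, which leaves a relative median of -0.52. Relative to the median gene 8 of 83 members were lower (8.27% of all genes) and none higher (17.6%), a share of members close to that of all genes; without this centring 74 were lower, as were 58.4% of all genes. The count was 16 without run 2 and 4 without run 6.

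The 8 called were Rps18 (-1.62), Rpl14 (-1.44), Rpl18 (-1.24), Rpsa (-1.07), Rpl13a (-1.06), Rpl3 and Rpl4 (both -1.04) and Rps4x (-1.02). Rpl12 (-1.05) changed sign in a run and Rps6 (-0.98), the S6 kinase substrate, missed the fold. Of the Diamond-Blackfan genes 1 was lower; Rps19 stood at -0.52, Rpl5 at -0.90 and Rpl11 at -0.46, none of them called.

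The levels here are scaled to non-globin UMIs, which fell per cell from 2 to 20% globin on, as did member UMIs. Rpl41 was the most abundant of the members with the highest relative values. Its level was 2859 to 10493 CPM over 7 runs (median 7329) in the last stage, against 4443 to 7817 CPM (median 5268) at 2 to 20% globin, so that the stages overlap; the plain log2 difference was 0.10 and the relative one 1.33, with a sign change between runs. Rps29 (0.82), Rpl38 (0.82) and Rplp2 (0.82), a stalk protein that recruits elongation factors, followed, then Rpl39 (0.60), Rpl37a (0.50), Rpl35 (0.34), Rps24 (0.32), Rps21 (0.21) and Rpl34 (0.20). On the plain scale all of these except Rpl41 were still below their earlier level, Rps29 at -0.41 and Rpl39 at -0.63. Counts of Rpl41 share sequence with Gm10076, a gene at least 97% identical to it over at least 90% of its last 300 bases, and reads of the pair may be split between them. Gm10076 had its own UMIs at 39.4% of the Rpl41 number at 2 to 20% globin and 60.3% in the last stage, and its level went from 2416 to 3958 CPM, so both moved in the same direction.

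From 60 to 80% globin to the last stage, a comparison chosen after the rise in share had been seen, 74 of 81 members that reached the filter were higher relative to the median gene (17.4% of all genes) and none lower (8.37%). The plain median rose by 0.72 while the median gene stood at -0.83. Rpl41 went from 2661 to 6568 CPM and Rplp2 from 1212 to 2776 CPM, whereas Rpl3 stayed at 689 and 650 CPM and Rpl14 at 526 and 525 CPM.

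Shorter coding sequences went with higher relative values in the late stages, and in some comparisons outside the erythroid series. Over the 77 standard members, Spearman's rho was taken between coding length and the relative log2 difference. In pooled cells it was -0.32 at 60 to 80% globin (-0.41 to -0.15 over 7 runs, median -0.20). In the last stage it was -0.52 (-0.53 to -0.30 over 7 runs, median -0.39). The pooled values were steeper than the median run in both. In pooled cells of the last stage the 25 shortest, of 75 to 399 bases, had a median of -0.16 and the 25 in the middle -0.52. The 27 longest, of 564 to 1257 bases, stood at -0.80. The youngest cells showed the opposite slope against 2 to 20% globin, with a rho of 0.53. These are correlations across genes measured in the same libraries, so the genes are not independent replicates, and the relation was looked for after the short genes had been seen to stand out. Pooled Mature B-like against ProB/PreB-like cells gave a rho of -0.48 and plasma-like against Mature B-like cells 0.35, without values for single runs. Neutrophil-like against GMP-like cells gave -0.33 when pooled. Every single run of that pair was weaker, at -0.29 to -0.01 (median -0.14), and why the pooled slope was steeper was not tested. A negative slope was not particular to late erythroid-like cells. With full transcript length in place of coding length rho was -0.33 in the last stage.

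**Figure D3:**
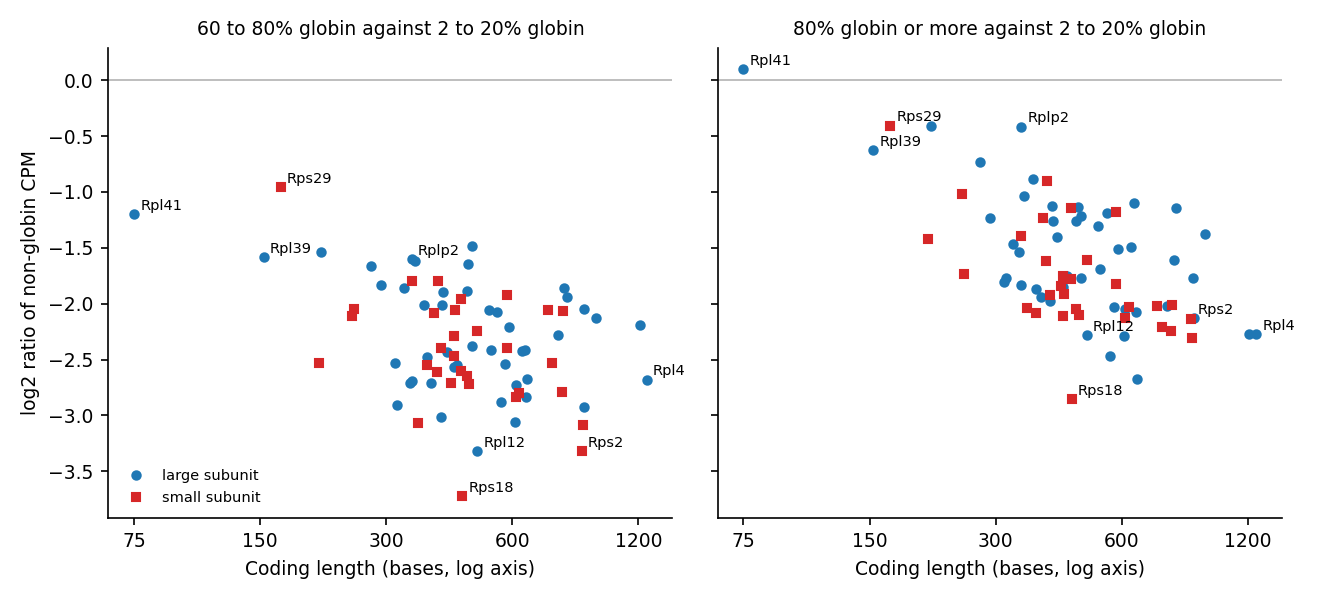
Plain log2 ratio of CPM against cells with 2 to 20% globin (y axis) for the 77 standard ribosomal protein genes by coding length (x axis, bases, log axis), at 60 to 80% globin (left) and 80% or more (right); circles are large-subunit and squares small-subunit genes. Rpl41, Rpl39 and Rps29 lie at the short, upper end in both panels, and Rps18 is lowest in both.

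The balance of the subunits moved toward the large one late. Large-subunit genes held 55.6, 54.7, 54.3, 58.2 and 60.6% of the UMIs of the 77 standard genes over the 5 stages. Rpl41 accounted for 2.20% of those UMIs at 2 to 20% globin (1.59 to 2.79% over runs) and 6.81% in the last stage (4.16 to 8.29%), without overlap.

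Other genes of translation at 60 to 80% globin are read against 14.0% of all genes lower and 22.5% higher. Of 10 elongation genes 7 were lower at 60 to 80% globin, led by Eef1g (-2.31) and Eef1b2 (-2.27), parts of the factor that recharges eEF1A, while Eef1d of the same complex was higher (1.25) and Eef2k, the kinase that inhibits eEF2, stood at 0.99. Of 29 initiation genes 10 were lower and 3 higher: Eif3f (-2.16) and Eif3a (-2.04), both of the eIF3 scaffold, against Pabpc1 (3.51), which binds poly(A) tails, and Eif5 (3.28), which triggers GTP hydrolysis at the start codon. A list of 20 genes with oligopyrimidine tracts outside the family overlaps the other lists, sharing among others Eef1g, Eef1b2, Eif3f, Pabpc1, Rack1 and Nap1l1. In it 14 were lower and 2 higher, counts that partly repeat those of the other lists. Pabpc1 and Vim (1.57), both in that list, rose while Eef1g and Eef1b2 fell. Pabpc1 went from 758 to 5879 CPM and on to 9239 CPM in the last stage.

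The shares of ribosome rescue genes lower and of translational control genes higher were near those of all genes. Ribosome rescue genes had 2 of 10 lower, Rack1 (-2.23), a platform on the small subunit, and Abce1 (-1.48), which splits ribosomes, and 1 higher, Gtpbp2 (2.58); Gigyf2, a repressor of initiation on stalled messages, stood at 0.84. Of 12 genes of translational control none was lower and 3 were higher, among them Eif2ak1 (2.88), the haem-regulated eIF2α kinase that couples globin synthesis to haem, and Eif2ak2 (1.48); the lowest were Larp4 (-0.80) and Rheb (-0.70). Of 5 chaperones and importers of ribosomal proteins 2 were lower, Nap1l1 (-1.81) and Ipo5 (-1.70), with Ipo9 (-0.75) and Aamp (-0.11) not called. The mitochondrial ribosome, encoded by a separate gene set, had 39 of 69 members lower and a median of -1.08, from -2.23 for Mrpl52 and -2.11 for Mrps24 to 0.27 for Mrpl57 and 1.08 for Mrpl32.

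Fau encodes Rps30 fused to a ubiquitin-like domain, and the naming rule misses it. It was lower at 60 to 80% globin, at -1.33 (899 against 3394 CPM).

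Outside the erythroid series the family's share spanned a range as wide as that across erythroid stages. The cells were placed in classes by fixed markers, and each class name is followed by "-like" because it rests on rebuilt clusters. Mature B-like cells had 31.4% (25.1 to 35.2% over 7 runs), HSPC-like (haematopoietic stem and progenitor) cells 30.8% (28.6 to 31.7%, 5 runs), T-like cells 27.2% (22.9 to 33.2%, 8 runs), GMP-like (granulocyte-monocyte progenitor) cells 26.2% (23.5 to 29.1%, 7 runs) and dendritic-like cells 25.5% (22.7 to 28.6%, 5 runs). The runs of these neighbours overlap. The dendritic-like name is not firm: the cluster of 364 cells had 4 dendritic markers among its 50 leading genes. Dntt, a fixed marker of lymphoid progenitors, led it beside H2-Aa, H2-Ab1 and Flt3, so progenitors may be mixed in.

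A middle group followed: plasmacytoid dendritic (pDC-like) cells at 21.0%, with 80.3% of cells from 1 run, basophil/mast-like cells at 20.4%, ProB/PreB-like cells at 19.8%, megakaryocyte-like cells at 19.4%, monocyte-like cells at 19.3% and nonclassical monocyte-like cells at 17.7%. Megakaryocyte-like cells were the least even, from 2.54% in run 7 to 27.5% in run 1, and without run 7 the pooled share was 19.9%. Lowest were endothelial/stromal-like cells at 11.3% (61 cells), macrophage-like cells at 10.3% (7.88 to 13.8%, 4 runs), plasma-like cells at 8.88% (8.10 to 17.7%, 8 runs) and neutrophil-like cells at 6.56% (5.73 to 12.4%, 7 runs). The runs of neutrophil-like cells lay wholly below those of GMP-like cells. Per cell, members had 841 UMIs of 12829 non-globin UMIs in neutrophil-like and 6198 of 23659 in GMP-like cells. Plasma-like and Mature B-like cells differed less per cell, with 1482 and 1837 member UMIs, than in total, with 16689 and 5857 non-globin UMIs. Immunoglobulin genes such as Ighg2b and Igkc led the plasma-like cluster and were kept in its non-globin UMIs. The plasma-like share is thus not on the same footing as the late erythroid shares, from which globin was left out.

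Whether share goes with median depth over these classes was not tested. Neutrophil-like cells had a median of 10493 UMIs with a low share, and Mature B-like cells 5152 with a high one. GMP-like and HSPC-like cells, however, had medians of 24215 and 12576 UMIs with high shares, and macrophage-like cells 2142 with a low one. An erythroid-like cluster of 1089 shallow cells, with a median of 1417 UMIs, had a share of 32.1%, beside 29.5% in a cluster with a median of 21174. Of the 5 unnamed clusters, which hold 2498 cells, 1 of 195 cells led by late erythroid genes had 2.97%. The median globin share in that cluster was 17.7%, and its cells are in none of the erythroid stages.

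**Figure D4:**
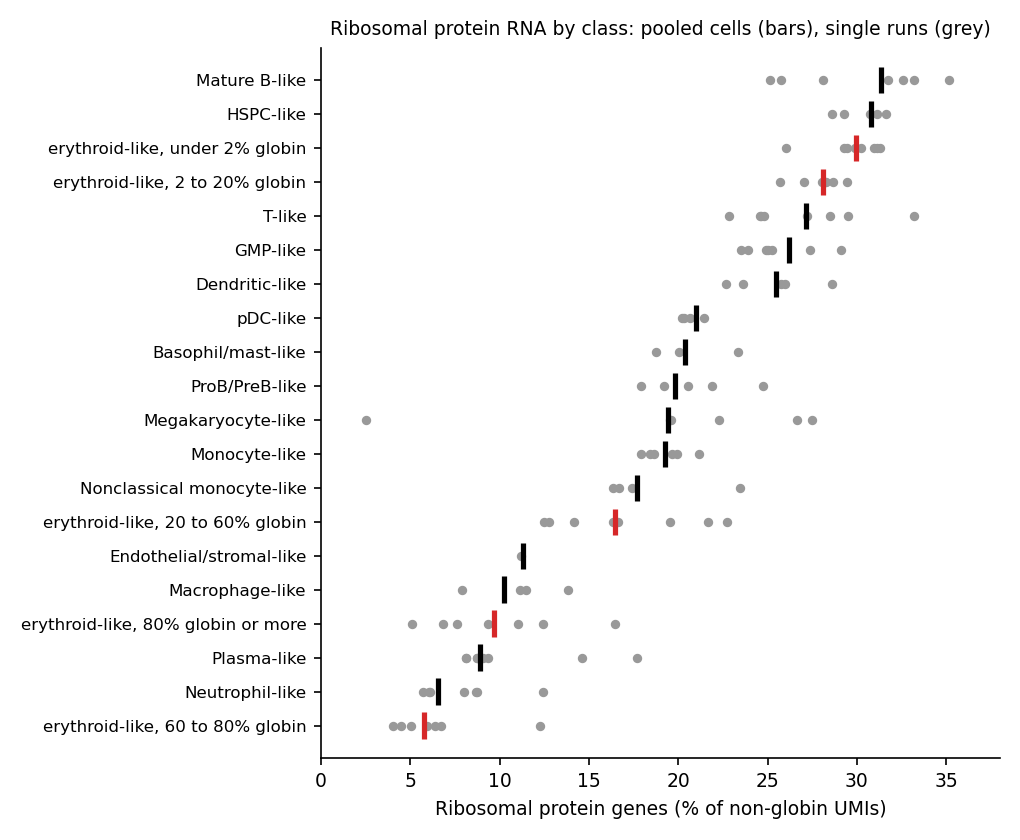
Share of non-globin UMIs held by ribosomal protein genes (x axis, percent) in each class and erythroid stage; bars are pooled cells (red for erythroid stages) and grey points are runs with at least 20 cells. Neutrophil-like and plasma-like cells sit with the late erythroid stages near 6 to 10%, and Mature B-like and HSPC-like cells with the earliest at about 30%. Globin is left out of the denominator, but immunoglobulin RNA of plasma-like cells is not.

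Neutrophil-like and GMP-like cells, compared because their shares differed, are described gene by gene; the lower level of the family is what chose the pair. In neutrophil-like cells 79 of 83 members were lower (11.7% of all genes) and none higher (15.9%), with a median of -1.55 relative to a median gene at -0.43. All 46 large-subunit members were called. Rps2 was lowest at -2.41 (805 against 5823 CPM), then Rpl12 at -2.28, Rpl14 at -2.16, Rpl10a at -2.12 and Rpl3 at -2.09. Rps27 (-0.54, 807 against 1591 CPM) and Rps9 (-0.62) were the only standard members not called. The count was 78 or 79 when single runs were left out.

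Among neutrophil-like clusters the share was 14.5% in 433 cells with Fcnb, an early granule gene, among the leading markers, 6.44 and 3.94% in 2 larger clusters, and 2.82 and 2.73% in 2 clusters of 929 cells, the last with Il1b and Cxcr2. Clusters rest on the other genes of the same cells, so this order is a description.

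Plasma-like against Mature B-like cells, chosen in the same way, gave a mixed picture. There 25 of 83 members were lower (8.39% of all genes) and 2 higher (10.8%), with a relative median of -0.86; the median gene stood at -0.98, and without centring 73 were lower. Rps27 was lowest at -1.89 (1055 against 7750 CPM), followed by Rpl39 at -1.60, Rps19 at -1.45 and Rpl30 at -1.37. The 2 higher genes were both paralogues, Rps27l at 2.11 (254 against 111 CPM) and Rpl36al at 1.53 (849 against 576 CPM). Elongation and initiation genes had none lower, of 9 and 29, and 8 of 60 mitochondrial ribosome genes were higher. In the step before, from ProB/PreB-like to Mature B-like cells, 40 of 83 members were higher (8.73% of all genes) and none lower (7.27%), with a plain median of 0.62 and a median gene at -0.37.

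The make-up of the family was also compared between classes. For each standard member the share in the UMIs of all 77 was compared over 16 classes, erythroid-like cells counted as 1. The median ratio of the highest to the lowest class was 1.82, and 26 of 77 genes reached 2. Class and run are mixed in these ratios: within a class the highest run was a median of 1.38 times the lowest, megakaryocyte-like cells, 65.1% of them from 1 run, were lowest for 11 of the 26 genes, and without them 17 genes reached 2 and the median ratio was 1.72. Rpl24, a late-joining large-subunit protein, varied least with Rps3a1, both at 1.31.

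Rps27, a zinc-binding small-subunit protein, varied most, by 5.73-fold. It held 2.48% in Mature B-like cells (0.998 to 3.14% over 7 runs) and 1.92% in T-like cells (0.945 to 2.54% over 8 runs), but 0.434% in megakaryocyte-like cells (0.399 to 0.926% over 6 runs). The first and last of these did not overlap, but HSPC-like cells alone ran from 0.441 to 1.26% over 5 runs. Rpl31, near the exit tunnel, held 1.10% in pDC-like cells (1.02 to 1.29%, 4 runs) and 0.282% in T-like cells (0.240 to 0.337%, 8 runs), also without overlap. Rplp1, partner of Rplp2 in the stalk, held 4.32% in macrophage-like cells (3.54 to 5.57%, 4 runs) and 1.12% in neutrophil-like cells (1.08 to 1.31%, 7 runs).

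Rps29 ranged from 1.06% in megakaryocyte-like to 3.22% in macrophage-like cells, and Rpl41 from 1.09% in HSPC-like to 3.13% in plasma-like cells, each without overlap of runs. Gm10076 had UMIs at 22.5 to 64.6% of the Rpl41 number over the groups examined. Whether reads of that pair split differently between classes was not tested. Rps2 and Rplp0, the stalk's anchor, were highest in erythroid-like cells, at 2.57 and 2.73%, and lowest in nonclassical monocyte-like cells (0.878%) and macrophage-like cells (1.08%). Within the erythroid series Rps2 went from 2.99% under 2% globin to 1.35% at 60 to 80%. Rpl38, Rps21 and Rpl37a completed the 10 most variable genes, with ratios of 2.60, 2.57 and 2.43, all with their lowest share in megakaryocyte-like cells and with overlapping runs.

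Paralogues were described by their part in the UMIs of a pair. Rps27l, a p53 target that can replace Rps27, made up 32.5% of its pair in erythroid-like cells under 2% globin (95% exact interval 31.9 to 33.2%, which covers counting error only, and 21.7 to 34.6% over 8 runs). The later stages gave 27.4, 21.9, 24.2 and 23.1%, with overlapping runs. Megakaryocyte-like cells had 28.1% (21.4 to 30.2%) and GMP-like cells 23.9% (19.5 to 33.6%), but T-like cells had 3.28% (1.44 to 10.00%) and Mature B-like cells 1.41% (1.09 to 4.19%). Every run of Mature B-like cells lay below every run of the erythroid-like stages. Both sides of the pair moved: Rps27l stood at 670 CPM and Rps27 at 1392 CPM in the youngest erythroid-like cells, against 111 and 7750 CPM in Mature B-like cells. ProB/PreB-like cells lay between, at 6.78%, and plasma-like cells had 19.4% (17.6 to 41.8%).

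Rpl36al, a near twin of Rpl36a, was the major form only in plasma-like cells among the 20 stages and classes, at 62.9% of the pair (51.8 to 68.7% over 8 runs, 849 against 501 CPM). Runs of plasma-like cells lay above those of every other group. The next were pDC-like cells at 43.4% (37.4 to 45.7%) and monocyte-like cells at 41.5% (37.9 to 44.9%), whose runs overlap. The lowest values were 20.4% at 20 to 60% globin (18.1 to 21.6%), 21.3% in HSPC-like cells and 21.6% in Mature B-like cells.

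Rpl22l1, which can replace Rpl22 and is repressed by it in mice, held 53.7% of its pair at 60 to 80% globin (29.6 to 65.4% over 7 runs). The other stages gave 33.0, 36.3, 37.1 and 34.0% in order, and their runs, from 15.5 to 47.5%, overlap that range. Rpl22 fell from 1838 to 273 CPM between 2 to 20% and 60 to 80% globin and Rpl22l1 from 1048 to 316 CPM, so the pair's balance shifted while both were lower. Neutrophil-like cells had 41.4% (33.2 to 43.0%) and plasma-like cells the least, 20.2% (14.9 to 29.7%).

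**Figure D5:**
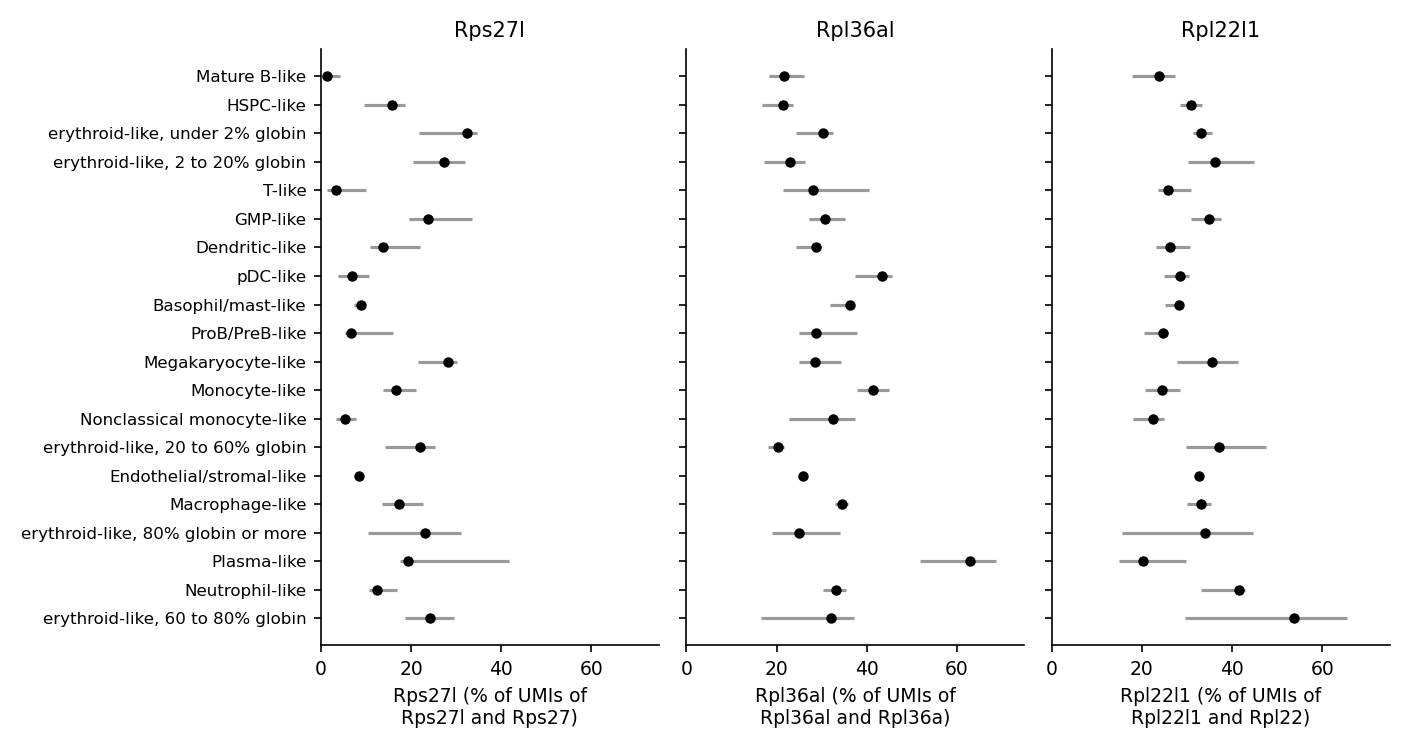
Share of Rps27l, Rpl36al and Rpl22l1 in the UMIs of each paralogue pair (x axes, percent) by class and erythroid stage, ordered by total ribosomal protein share; points are pooled cells and grey lines run from the lowest to the highest run with at least 20 cells. Rps27l is lowest in Mature B-like cells at 1.41%, Rpl36al highest in plasma-like cells at 62.9%, and Rpl22l1 highest at 60 to 80% globin at 53.7%.

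The remaining members were scarce. Rpl7l1, a factor of ribosome assembly, had 106, 57.2, 34.1, 28.6 and 16.1 CPM over the 5 stages and was not called in any of them. Rps19bp1 had 83.3, 36.3, 23.2, 8.98 and 11.8 CPM. Rps27rt, a retrogene copy of Rps27, had 2.14% of the UMIs of its pair at 2 to 20% globin and 3.42% in the last stage, and stray reads from Rps27 cannot be told apart from its own.

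Rpl3l, the striated muscle form of Rpl3, had 202 UMIs in neutrophil-like cells, 0.841% of its pair (0.730 to 0.965%), and 19 UMIs in nonclassical monocyte-like cells, 2.22% (1.34 to 3.44%), against 1 UMI at 2 to 20% globin. Rpl39l, the testis form of Rpl39, had 7 UMIs in endothelial/stromal-like cells, 1.67% of its pair (0.674 to 3.41%), and 1 UMI at 2 to 20% globin. Neither had a UMI in the last 2 erythroid stages.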

How the data were processed

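The deposited table holds raw UMI counts per gene and cell, made by the authors with Cell Ranger 5.0.0 and Seurat 3.1.5 on mm10, per the submitters' processing notes; the sources used here do not state their filters. Total counts per run were 6195876 to 48442321, and the median cell had 7554 UMIs. The members and lists were chosen with earlier results of these data known. Cells were clustered if they had 200 genes or more and no more than 20% of UMIs from mitochondria, in scanpy 1.11.5 (2000 variable genes without the members, 30 components, 15 neighbours, Leiden resolution 1, seed 0), and a cluster was named for a class with at least 3 fixed markers at 50 CPM or more and with more markers among its 50 leading genes by fold than any other class. Scrublet marked 17 cells (0.068%) as doublets, and these were left out. Why the rate was this low was not tested, and doublets may remain. An alternative leaves out the highest 6% of scores.

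Stage and class levels are sums over pooled cells. Ranges use runs with at least 20 cells of the group. Runs may hold more than 1 library or part of one, and are not replicates of a condition. Comparisons use log2 of CPM + 10, for genes that reach 20 CPM in one of the groups, centred on the median gene. On simulated counts for 60 to 80% against 2 to 20% globin, 100 of 100 genes changed 4-fold were called, 4% of those changed 2-fold and 0 of 4641 unchanged genes. All simulated runs were drawn from the same profile with counting error only. Since the real runs differ, these values do not give the error rate of the rule on the data. A test of transgenic against control libraries was planned and not made. Coding lengths came from the GENCODE annotation and start sites from RefSeq, on GRCm38.p6; genes with copies were sought as sequences at least 97% identical over 90% of the last 300 bases.

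Genes were named by rule: all paralogues, the 10 largest and 10 smallest changes at 60 to 80% and at 80% globin or more, Rps19, Rpl5 and Rpl11, the 10 members most variable over classes, and the 2 highest and 2 lowest of each companion list. Chosen after values were seen were the comparisons between classes and between the last 2 stages, the narrow globin steps, Malat1, the neutrophil markers by stage, coding length, the check of copies, the class ratios without megakaryocyte-like cells, the C and T stretches, and the genes whose start sites are printed.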

Additional observations from a re-analysis of the deposited data

How the results depend on the processing

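Runs are not labelled libraries, so the ranges here show spread within pooled data and no transgene effect. No paired analysis was possible because the cells cannot be tied to libraries and no result comes from a test. The count of 73 lower members at 60 to 80% globin and the paralogue shares stayed within their margins under all alternatives run; beyond single runs left out, 6 values of stage shares, 9 of class shares, 14 lower counts and 6 higher counts did not. Leaving out cells whose barcode occurs in more than 1 run, tried after the data had been seen, moved none. With all UMIs as denominator the stage shares from 2 to 20% globin on were 25.1, 9.78, 1.77 and 0.996%, the endothelial/stromal-like share 11.2%, and the lower counts 23 at 20 to 60% and 79 in the last stage. Without globin and mitochondrial UMIs the shares were 29.4% at 2 to 20% globin, 12.5% endothelial/stromal-like, 32.3% HSPC-like and 22.2% pDC-like. The lower count in the last stage was 21 under a filter of 500 genes and 10% mitochondrial UMIs, 4 without the highest 6% of doublet scores (endothelial/stromal-like 11.6%, GMP-like 22.7%), 3 at resolution 0.5 (with 4 higher, 9 lower at 20 to 60% and macrophage-like 15.01%), 20 with stage limits of 1, 15, 50 and 75% (0 lower at 20 to 60%, share 20.5%), 2 with a pseudocount of 1 (3 higher), 70 without the filter on low levels and 74 without centring. With members kept for clustering, dendritic-like cells had 22.7% and GMP-like cells 22.6%. In plasma-like cells 10 were lower with a pseudocount of 1, 72 lower and 1 higher without the filter, and 73 lower and 1 higher without centring; under 2% globin 1 was higher with a pseudocount of 1 or without centring. Leaving out 1 run at a time gave 7 to 22 lower at 20 to 60% globin, 4 to 16 lower and 0 to 1 higher in the last stage, 0 to 1 higher under 2% globin, 10.6 to 11.7% for endothelial/stromal-like and 20.3 to 21.1% for pDC-like cells. Where a value moved, the cause was not tested beyond what each alternative itself changes.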
